A study of Mus musculus with 15 samples.

Results

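Small nuclear RNA (snRNA), small nucleolar RNA (snoRNA) and small Cajal body RNA (scaRNA) genes were followed in mouse embryonic stem cells (ESCs) losing OCT4. Members were all genes whose symbol begins with Snord, Snora, Scarna or Rnu and whose counts summed to at least 150 over 15 libraries. The count tables list 172 such symbols, of which 106 had at least 1 read, and 55 of the 48709 genes in all met the rule. They were 30 of 99 Snord, 14 of 42 Snora, 4 of 9 Scarna and 7 of 22 Rnu genes. At the edge of the rule, Snord91a held 162 and Snord7 held 166 summed counts, whereas Rnu3b1 held 134 and Snora34 held 139.

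OCT4, the product of Pou5f1, is a transcription factor of the naive pluripotent state. CreER ESCs (mixed 129SV and C57BL/6 background) carry 1 floxed and 1 null Oct4 allele with a CreER recombinase driven by CAG, and received 4-OHT (500 nM) for 0, 12, 18, 24 or 36 h, with 2 replicate libraries at each time. O4AID ESCs (129SV) derive from the ZHBT line, are Oct4-/-, carry a TetOFF wild-type Oct4 transgene that doxycycline held silent, and express Oct4 fused to an auxin-inducible degron and the TIR1 adaptor, both from CAG. They received IAA, the auxin that triggers degradation of the fusion, at 500 µM for 0, 1.5, 6, 10 or 24 h, with 1 library at each time. Both lines grew in N2B27 with 2i and LIF, a medium that holds the naive state. No label says whether CreER replicates came from separate cultures, so p-values measure only the spread between these libraries, which may be technical.

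snRNAs are the RNA core of the spliceosome. U1 pairs with the 5′ splice site, U2 with the branch point, U5 holds the exons together, and U12 takes the place of U2 in the minor spliceosome. Box C/D snoRNAs (Snord) guide 2′-O-methylation and box H/ACA snoRNAs (Snora) guide pseudouridylation, mostly of ribosomal RNA, while scaRNAs guide the same changes on spliceosomal snRNAs in Cajal bodies. snRNAs are made from their own promoters in many near-identical gene copies, whereas most mouse snoRNAs are cut from introns of host genes, many of which encode ribosomal proteins. None of these RNAs carries a poly(A) tail, and the libraries were made from RNA depleted of ribosomal RNA rather than selected for poly(A).

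The counted members were short, from 66 to 414 bases with a median of 110, and 25 were under 100 bases. A host was a gene of more than 1000 bases on the same strand whose span held the member. By this rule 41 members lay in 35 host genes, and 16 of these members sat in 13 genes for ribosomal proteins. The other 14 members had no such host, and shorter hosts were not counted. Snord43 met the rule by its symbol, although the annotation lists the counted gene as a microRNA of 108 bases. Snord42b overlaps an exon of its host Rpl23a and Scarna13 overlaps Mir3069, so their reads may be shared. Rnu1b6, Snora23, Snora57 and Snora78 lie opposite Gm10685, 1600010M07Rik, Lbhd1 and Rps2, respectively. The strand setting of the counting was not stated, so reads of these pairs may not be told apart.

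The U1 genes are shown because they carry the O4AID result and because their similarity limits it. The sequences are GENCODE M21 transcripts on GRCm38, whose lengths match the counted genes, and capitals mark the bases that differ between Rnu1a1 and the other copy (for Rnu1a1, from Rnu1b1).
Rnu1a1: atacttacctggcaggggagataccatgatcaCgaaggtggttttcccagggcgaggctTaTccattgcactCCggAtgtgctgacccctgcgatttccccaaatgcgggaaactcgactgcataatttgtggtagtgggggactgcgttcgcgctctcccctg
Rnu1b1: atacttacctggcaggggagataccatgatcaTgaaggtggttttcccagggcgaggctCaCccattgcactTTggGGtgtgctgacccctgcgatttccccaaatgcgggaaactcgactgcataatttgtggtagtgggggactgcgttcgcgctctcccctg
Rnu1b6: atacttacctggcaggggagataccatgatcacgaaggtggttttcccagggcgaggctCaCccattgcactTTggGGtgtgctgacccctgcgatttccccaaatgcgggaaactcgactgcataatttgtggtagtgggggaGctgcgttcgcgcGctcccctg
Rnu1b1 and Rnu1b2 were identical over their 165 bases. Rnu1a1 and Rnu1b1 were 95.8% identical at 7 edits, of which the substitutions were C33T, T60C, T62C, C73T, C74T and A77G (the Rnu1a1 base, its position from the 5′ end, the Rnu1b1 base). Rnu1b1 and Rnu1b6 differed at 3 edits. The first bases, atacttacctg, include the stretch that pairs with the 5′ splice site and were shared by all 4 genes. A read from outside the few marked bases fits more than 1 of them. The annotation holds 34 snRNA genes within 16 edits of Rnu1a1 or Rnu1b1, and 9 of these genes were identical to one or the other, themselves included.

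The other printed members passed the test in CreER or were among the largest changes in O4AID, and Snord17 is the most abundant box C/D snoRNA. Capitals mark the C box (TGATGA) and D box (CTGA) in Snord and Scarna6, the ACA box in Snora33, and the GTAGTA stretch of U2 that pairs with the branch point. In Snord19, the TGATGA letters were not found near the 5′ end.
Rnu2-10: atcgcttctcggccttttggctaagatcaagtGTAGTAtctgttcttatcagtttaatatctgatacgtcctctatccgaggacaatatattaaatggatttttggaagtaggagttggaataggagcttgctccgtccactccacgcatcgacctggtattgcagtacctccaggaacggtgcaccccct
Scarna6: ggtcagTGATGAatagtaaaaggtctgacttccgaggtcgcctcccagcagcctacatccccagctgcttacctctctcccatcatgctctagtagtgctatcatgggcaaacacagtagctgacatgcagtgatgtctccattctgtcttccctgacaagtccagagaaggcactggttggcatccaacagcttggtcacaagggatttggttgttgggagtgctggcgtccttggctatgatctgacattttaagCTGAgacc
Snord17: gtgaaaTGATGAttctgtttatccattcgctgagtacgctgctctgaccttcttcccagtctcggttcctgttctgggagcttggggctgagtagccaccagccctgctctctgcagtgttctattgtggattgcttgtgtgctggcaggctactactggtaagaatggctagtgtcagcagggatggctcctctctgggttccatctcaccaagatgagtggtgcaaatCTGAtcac
Snord49a: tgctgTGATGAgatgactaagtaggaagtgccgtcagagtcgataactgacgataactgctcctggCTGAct
Snord19: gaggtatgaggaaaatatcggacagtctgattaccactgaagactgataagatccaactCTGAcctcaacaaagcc
Snora33: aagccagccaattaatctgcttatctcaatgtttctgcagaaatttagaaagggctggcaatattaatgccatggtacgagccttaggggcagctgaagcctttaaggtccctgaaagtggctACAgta
Rnu1a1 lies at chr11:87422867-87423030 (+) within the span of Tex14, Rnu1b1 at chr3:96359953-96360117 (-), Rnu1b6 at chr3:96460024-96460189 (-) and Rnu2-10 at chr11:101658238-101658428 (+). Scarna6 lies at chr1:87784556-87784820 (+) within Atg16l1, Snord17 at chr2:144265979-144266216 (-) within Snx5, and Snord49a at chr11:62603450-62603521 (+) within 2410006H16Rik. Snord19 lies at chr14:31016206-31016281 (-) within Gnl3 and Snora33 at chr10:23785347-23785475 (-) within Rps12. A D box (CTGA in the last 15 bases of the sense strand) was found in 25 of 30 Snord members, against 7.54% of 55222 annotated transcripts. These background transcripts are the first listed for each gene, above a short length limit. A C box (NTGATGA in the first 15 bases) was found in 14 of 30 Snord members, against 0.867% of transcripts, and ACA 3 bases before the end in 11 of 14 Snora members, against 2.86%. Box C/D and box H/ACA RNAs are classed by these boxes, so such shares only describe the annotation. The Sm site AATTTNTGG, the landing site of the Sm ring, was found in 4 of 7 Rnu members, namely the U1 genes, against 3.21% of transcripts.

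The count files held 21.7 to 30.8 M reads per CreER library and 40.5 to 48.7 M per O4AID library, and the members together took 0.0182% to 0.0315% of the reads. Levels below are CPM (reads of a gene per M reads of its library) after TMM scaling, made separately for each line, so differences between lines are described and not tested. Pou5f1 mRNA fell in CreER by 1.43 on the log2 scale at 36 h (SE 0.0450, edgeR adjusted p 4.15e-19), whereas in O4AID the fusion is lost as protein and its mRNA does not check the treatment. The pluripotency genes Nanog, Sox2, Zfp42, Esrrb and Klf4 stood at 46.3 CPM or more in every CreER library. In O4AID they were present at 0 h and lower at 24 h, with Nanog going from 1304 to 382 CPM, Esrrb from 763 to 107, Zfp42 from 383 to 72.0, Sox2 from 315 to 82.8 and Klf4 from 153 to 28.3. Among markers of other cell types, Cdx2 reached 14.8 CPM in CreER and Gata6 went from 4.55 to 20.1 CPM between 0 and 24 h in O4AID, while Sox17, T and Ptprc stayed under 1 CPM and Col1a1 reached 3.77 CPM.

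Per length and over both lines together, the most abundant members were Rnu1a1, Scarna2, Snord17, Scarna13 and Snord104, with means over the 15 libraries of 263, 184, 87.8, 84.1 and 81.9 CPM per kb. The order differed between the lines. In the CreER libraries alone it was Scarna2, Snord17, Snord104, Scarna13 and Snora17, at 220, 102, 93.2, 83.4 and 63.6 CPM per kb, and Rnu1a1 was the first in O4AID, with a median of 740. Only 4 members averaged at least 10 CPM and 22 averaged under 1 CPM, so most members rest on few reads. Among the U1 members, Rnu1a1 stood apart between the lines, at 31.1 ± 4.49 CPM per kb over the CreER libraries (SD, n = 10 libraries) and between 405 and 923 CPM per kb in O4AID. Some U1 copies outside the rule did so too. In the 2 CreER libraries and the O4AID library at 0 h, Gm22068 held 105, 153 and 7091 reads. Gm24830 held 119, 156 and 3350, and Gm22634 held 100, 168 and 1219. Other copies did not, such as Gm26444 at 95, 156 and 91. The U1b members, by contrast, overlapped between the lines. For Rnu1b1 the O4AID range was 19.7 to 44.3 CPM per kb and the CreER range 22.4 to 60.8. Rnu1a1 took 2.52% to 3.68% of the reads of the 34 U1 copies in CreER and 26.5% to 28.7% in O4AID, a narrow range of shares within each line. Reads that fit several copies may have been counted at each of them, so these shares may count a read more than once. Of the 55 members, 50 had a lower mean in O4AID than in CreER, with a median ratio of 0.369, and Snord93 was listed at 0 in every O4AID library. Some host genes differed between lines by more than this. Rps12, for example, held 15.1 and 19.5 CPM at 0 h in CreER and 1663 in O4AID, while Atg16l1 held 71.9 and 77.9 CPM in CreER and 45.6 in O4AID. Whether libraries of both lines were counted with the same settings is not stated, so line and counting cannot be told apart.

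The most abundant Snord members after Snord17 and Snord104 were Snord43, Snord49a and Snord19, at 48.1, 46.4 and 34.5 CPM per kb. Among H/ACA members, Snora17, Snora33, Snora78, Snora57 and Snora28 had the highest means over both lines, at 48.9, 22.4, 22.1, 21.9 and 20.1 CPM per kb. In O4AID alone, Snora78 had a median of 4.77 CPM per kb, below Snora2b, Snora41 and Snora23 at 6.54, 6.47 and 5.92. Scarna6 followed Scarna2 and Scarna13 at 28.9 CPM per kb. In means over all 15 libraries, hosted members mostly stood below their hosts per length. Only 5 of 41 exceeded the host, and the median ratio of member to host was 0.157. Some hosts differed strongly between the lines, as Rps12 did, so the ratio within a single line may differ. The pooled ratio ran from 0.0109 for Snord16a in Rpl4 to 49.6 for Rnu1a1 in Tex14. Rnu1a1 counts as hosted by position only, since snRNAs are made from their own promoters.

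After 1.5 h of IAA, the U1 genes and Scarna6 were lower than at 0 h. Rnu1a1 held 151, 66.5, 121, 111 and 146 CPM at 0, 1.5, 6, 10 and 24 h, from 7090, 2969, 5012, 4546 and 7040 reads. The 1.5 h library was the lowest of the 5 and the 24 h library was back near the starting value. In whole cultures, fewer cells of a type and less RNA per cell cannot be told apart. Its log2 change at 1.5 h was -1.19, with a 95% interval of -1.25 to -1.12 that covers counting error only. Rnu1b6 held 6.64, 2.33, 4.84, 4.88 and 6.76 CPM, with a log2 change of -1.47 at 1.5 h (-1.78 to -1.16). Rnu1b1 and Rnu1b2 changed by -1.03 (-1.31 to -0.76) and -1.16 (-1.45 to -0.87). All 4 followed the same course, lowest at 1.5 h, between -0.45 and -0.17 at 6 h and between -0.45 and -0.30 at 10 h, and between -0.05 and 0.11 at 24 h. Since these genes share nearly all of their sequence, they are not separate measurements. Gm22068, a gene outside the rule with the same sequence as Rnu1a1, held 7091, 3070, 5078, 4546 and 7169 reads at the 5 times, close to the counts of Rnu1a1 in each. Such closeness did not hold over all 9 genes identical to Rnu1a1 or Rnu1b1. In O4AID at 0 h, they ran from 88 reads (Gm23804) to 7091 (Gm22068), with Gm22634 at 1219. In CreER 0 h replicate 1, they ran from 60 (Rnu1b2) to 115 (Gm22317). Why the lines differ in this was not tested.

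Summed over the 34 U1 copies, a sum in which reads shared by copies may be counted more than once, the level was 546 CPM at 0 h and 231 CPM at 1.5 h, a log2 change of -1.24, followed by -0.34, -0.47 and 0.01 at the 3 later times. Of the 17 copies that averaged 50 or more reads in the pair of libraries, 17 were lower at 1.5 h, between -1.52 and -0.48, and 13 were past 2-fold.

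**Figure D1:**
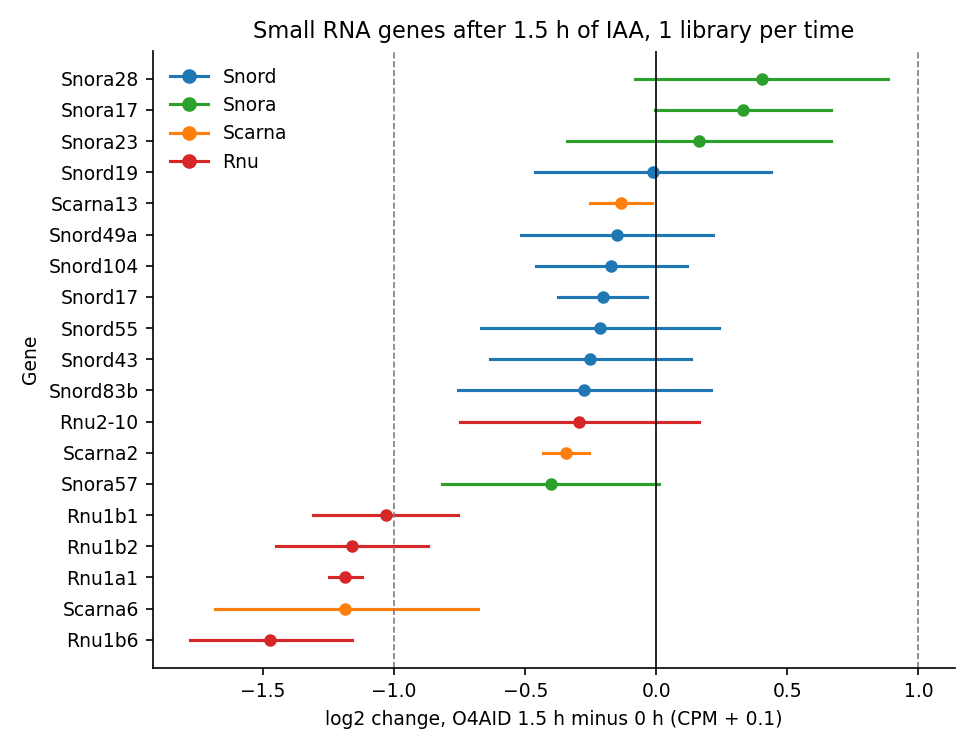
Log2 change between the O4AID libraries at 1.5 h and 0 h of IAA (x axis, CPM + 0.1) for the 19 members with a mean of at least 50 counts, coloured by class, with 95% counting intervals as lines and 2-fold as dashed lines. The 4 U1 genes and Scarna6 lie left of the lower 2-fold line, from -1.47 to -1.03, and the highest member is Snora28 at 0.40.

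Among members averaging 50 counts or more, 5 of 19 were past 2-fold at 1.5 h and all 5 were lower, against 0.319% of the 13492 genes of that depth. Their median log2 change was -0.25, against -0.01 over all genes. The 5 members are the 4 U1 genes and Scarna6, so with the U1 genes taken as 1 value the count is 2 of 16. With the 6 h library as the reference, 2 of 18 were past 2-fold, and with the mean of the other 4 O4AID libraries, 3 of 20. Without the depth limit, 39 of the 55 members were lower at 1.5 h, 15 were higher and Snord93 was at 0 in both libraries. No p-value exists for these values, because each time is 1 library.

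The classes differed at 1.5 h. The Snord sum went from 36.6 to 31.4 CPM, the Snora sum from 12.6 to 12.4, the Scarna sum from 79.1 to 64.7 and the Rnu sum from 174 to 76.5. In Rnu, nearly all of the difference was U1. Rnu2-10, a U2 gene, held 1.64 and 1.32 CPM at 0 and 1.5 h (-0.30, interval -0.75 to 0.16). Rnu5g went from 25 to 10 reads (-0.97, -1.70 to -0.16) and Rnu12 from 10 reads to 1, so both were too sparse for the depth limit. Scarna2, the largest scaRNA member, changed by -0.34 (-0.43 to -0.26), and Scarna13 by -0.14 (-0.25 to -0.02). Of the 7 Snord members with enough reads, 7 were lower, by no more than Snord83b at -0.28, and 1 interval stayed below 0, that of Snord17 at -0.20 (-0.37 to -0.04). Snora28, Snora17 and Snora23 had the greatest positive differences, at 0.40 (-0.08 to 0.88), 0.33 (-0.01 to 0.67) and 0.16 (-0.34 to 0.67), and all 3 intervals included 0. The next highest, Snord19, stood at -0.01.

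RNAs outside the rule moved beside the U1 genes in this library. The 14 genes listed as other small structured RNAs summed to 341 CPM at 0 h and 172 at 1.5 h, a log2 change of -0.98. Rpph1, the RNA of RNase P, changed by -1.29 (-1.35 to -1.23), and Rn7s1 and Rn7s2, the 7SL RNAs of the signal recognition particle, by -0.80 and -0.75. Rmrp, the RNA of RNase MRP, changed by -0.79, whereas Terc, the telomerase RNA, changed by -0.22 (-0.38 to -0.06). Like U1, the list stood closer to 0 h later on, at 219 CPM at 10 h and 328 CPM at 24 h. CT010467.1, the annotated ribosomal RNA gene, was at 4642, 975, 235, 138 and 940 CPM at the 5 times, lowest at 10 h. The 183 ribosomal RNA genes of the list, mt-Rnr1 and mt-Rnr2 among them, summed to 72750 CPM at 0 h and 68523 at 1.5 h, a log2 change of -0.09. Ribosomal RNA was depleted from these libraries, and how far that depletion differed between them was not tested. Genes of up to 400 bases other than members and U1 copies summed to 6697 CPM at 0 h and 5849 at 1.5 h (-0.20). Of 161 such genes with enough reads, 0 rose and 4 fell past 2-fold, against 0.319% of all genes in either direction. Their median log2 change was -0.18. What part recovery of short RNAs played in the U1 values was not tested.

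**Figure D2:**
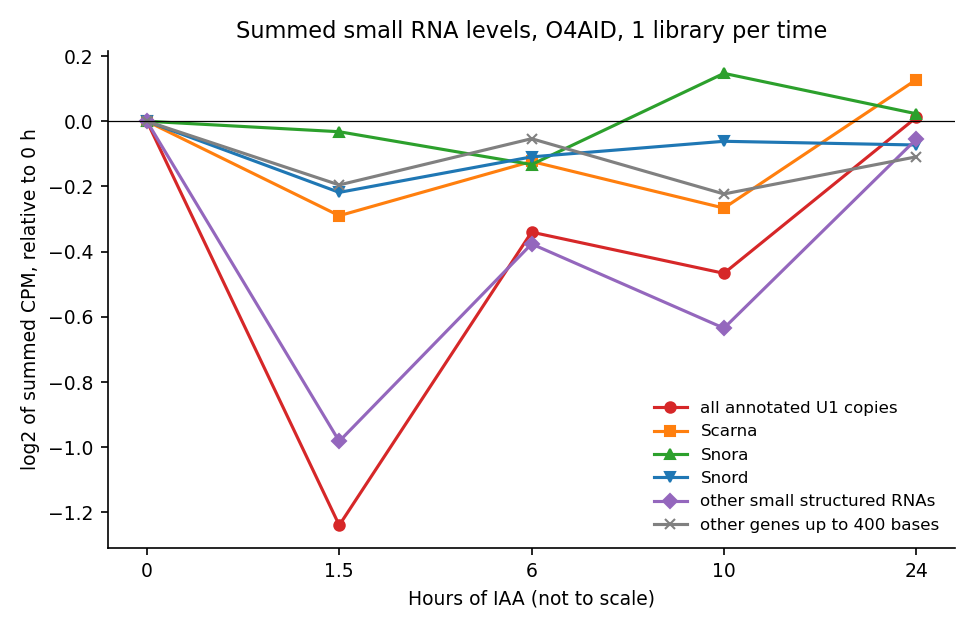
Log2 of summed TMM-scaled CPM relative to the 0 h library (y axis) at each O4AID time (x axis, not to scale), 1 library per point, for all 34 annotated U1 copies, the Scarna, Snora and Snord members, other small structured RNAs and other genes of up to 400 bases. U1 and the other structured RNAs reach -1.24 and -0.98 at 1.5 h and lie near 0 at 24 h, while the Snora sum is at -0.03 at 1.5 h.

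As a gauge of ordinary spread, replicate 2 was compared with replicate 1 at each CreER time by the same measure. At 0 h, 1 of 25 members was past 2-fold (Snord15a, 1.62), against 0.0669% of all genes. At 12, 18, 24 and 36 h, 0 of 23, 25, 28 and 22 members were, against 0.0297%, 0.0222%, 0.0218% and 0.0455% of genes. The 4 U1 genes differed between CreER replicates by at most 0.87 in size over 20 differences, below each of their O4AID differences between 1.5 h and 0 h. Against the 6 h library, the 1.5 h differences of Rnu1a1 and Rnu1b1 were -0.87 and -0.58, no larger than that spread. Those of Rnu1b6, at -1.03, and Rnu1b2 were larger. The 0.87 came from Rnu1b1 in the untreated pair, and Rnu1a1 itself differed between replicates by at most 0.42. The U1 genes share reads, so the 20 differences are not separate. CreER libraries held fewer reads and come from another line, so this spread may not be that of O4AID.

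Scarna6, a scaRNA, had the highest ratio of highest to lowest level (CPM + 0.1) of the 55 members over the O4AID libraries. It held 1.96, 0.81, 2.25, 4.10 and 6.37 CPM at 0, 1.5, 6, 10 and 24 h, on 92, 36, 93, 168 and 307 reads. It was lowest at 1.5 h and rose from each time to the next thereafter, and by 24 h the log2 change from 0 h was 1.65 (1.33 to 1.97). With a pseudocount of 1 CPM, the change at 1.5 h was -0.71, no longer past 2-fold, and at 24 h it was 1.31. Its host Atg16l1, an autophagy gene, changed by 0.12 and 0.08 at 1.5 and 24 h. In CreER, untreated libraries held 6.01 and 7.27 CPM of Scarna6. After 12 h of 4-OHT the pair read 11.6 and 10.5, followed by 8.42 and 12.4 (18 h), 10.0 and 9.22 (24 h) and 14.4 and 9.52 (36 h). Both replicates at every later time were above both at 0 h. At 36 h edgeR gave Scarna6 a rise of 0.87 log2 (SE 0.25, adjusted p 0.026), while the host fell by 0.17 (adjusted p 0.013). Earlier values were 0.73, 0.65 and 0.53 with adjusted p of 0.44, 0.17 and 0.18, so only the 36 h value was called. That call was lost without 0 h replicate 1 (0.76, adjusted p 0.14), 0 h replicate 2 (1.02, adjusted p 0.086) or 36 h replicate 1 (0.52, adjusted p 0.069).

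At later O4AID times few members were past 2-fold. The levels of the pluripotency genes and Gata6 given above moved over the same libraries, and their part in the late member values, Scarna6 included, was not tested. At 6 h, 0 of 18 were, against 2.09% of genes. Scarna6 was the 1 of 20 at 10 h, against 4.04% of genes, and again at 24 h, against 11.7%. With a pseudocount of 1 CPM, 0 were past 2-fold at 10 h. The member medians were -0.25, -0.16 and 0.02. Scaling by total counts instead of TMM would raise every gene at 24 h by 0.11, and the median of members to 0.13. Snord49a held 2.52, 2.26, 1.91, 1.56 and 1.45 CPM and so declined from each time to the next, to -0.75 at 24 h (-1.16 to -0.35). Snord19 took the same path, from 1.52 to 0.93 CPM (-0.64, -1.13 to -0.15), and Snord55 and Snord83b were at -0.58 (-1.05 to -0.10) and -0.57 (-1.06 to -0.07). Snora33 rose from each time to the next, from 0.94 to 1.51 CPM (0.64, 0.14 to 1.13), on 44 and 73 reads. Snora28 and Snord15a were at 0.43 (-0.04 to 0.91) and 0.35 (-0.11 to 0.81), with intervals that include 0.

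**Figure D3:**
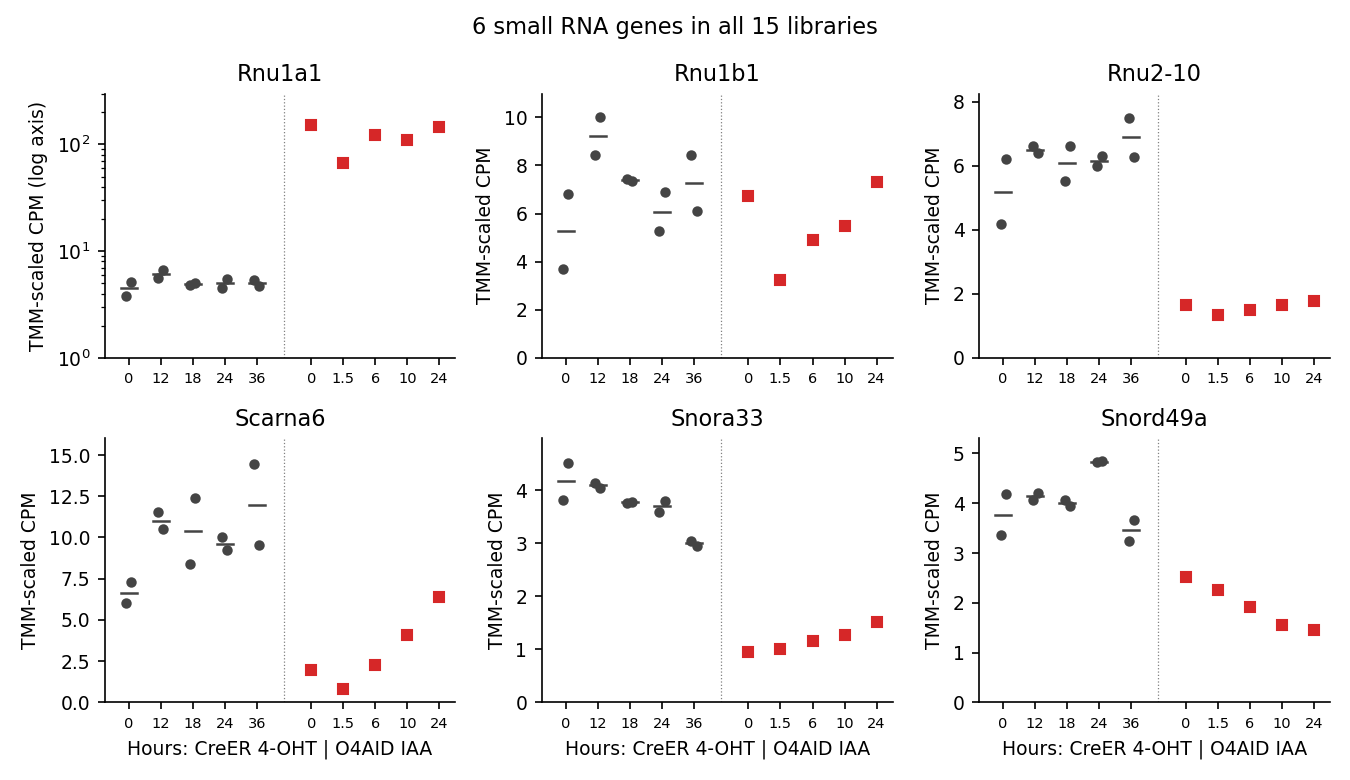
TMM-scaled CPM of 6 members (y axes, starting at 0 except a log axis for Rnu1a1) in the 10 CreER libraries (grey points, 2 replicates per time, bars are means) and the 5 O4AID libraries (red squares) by hours of 4-OHT or IAA. Rnu1a1 and Rnu1b1 dip at 1.5 h of IAA, Scarna6 ends at 6.37 CPM in O4AID after 1.96 at 0 h, and Snord49a goes from 2.52 to 1.45 CPM in O4AID.

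In CreER, the members moved little as a group, and the 2 untreated libraries differed from each other. Among members with a mean of at least 50 counts, 24 of 25 were higher in replicate 2 than in replicate 1 at 0 h, with a median difference of 0.42 log2, whereas 50.1% of all genes were higher. The medians between replicates at the other times lay between -0.06 and 0.07. Class sums at 0 h were 63.1 and 84.1 CPM for Snord, 31.7 and 42.2 for Snora, 100 and 147 for Scarna and 19.1 and 28.5 for Rnu. At 0 h, CT010467.1 also differed, at 1417 and 3784 CPM, while other small structured RNAs summed to 3350 and 3514 CPM. All CreER values below rest on these 2 libraries.

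All 55 members passed the filter on low counts. By edgeR's quasi-likelihood test with Benjamini-Hochberg adjustment over 18969 genes, the numbers of members called (adjusted p under 0.05) were 1, 0, 0 and 5 after 12, 18, 24 and 36 h. The shares of all genes called were 0.395%, 8.52%, 21.6% and 36.6%. Most members rest on few reads, and the part of read depth in the number called was not tested. An unadjusted p under 0.05 was reached by 9, 5, 6 and 11 members, and DESeq2 called 1, 0, 0 and 2. The median log2 fold changes of members were 0.06, 0.00, 0.10 and -0.11, with medians over all genes of at most 0.01 in size. Without 0 h replicate 1, the counts were 1, 3, 4 and 11, and every one of these was lower, with medians of -0.11, -0.15, -0.08 and -0.30. Without 0 h replicate 2, they were 3, 3, 6 and 7, all higher but 1 at 36 h, with medians of 0.29, 0.24, 0.29 and 0.05. The sign of the group median therefore changed with the untreated library used.

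**Figure D4:**
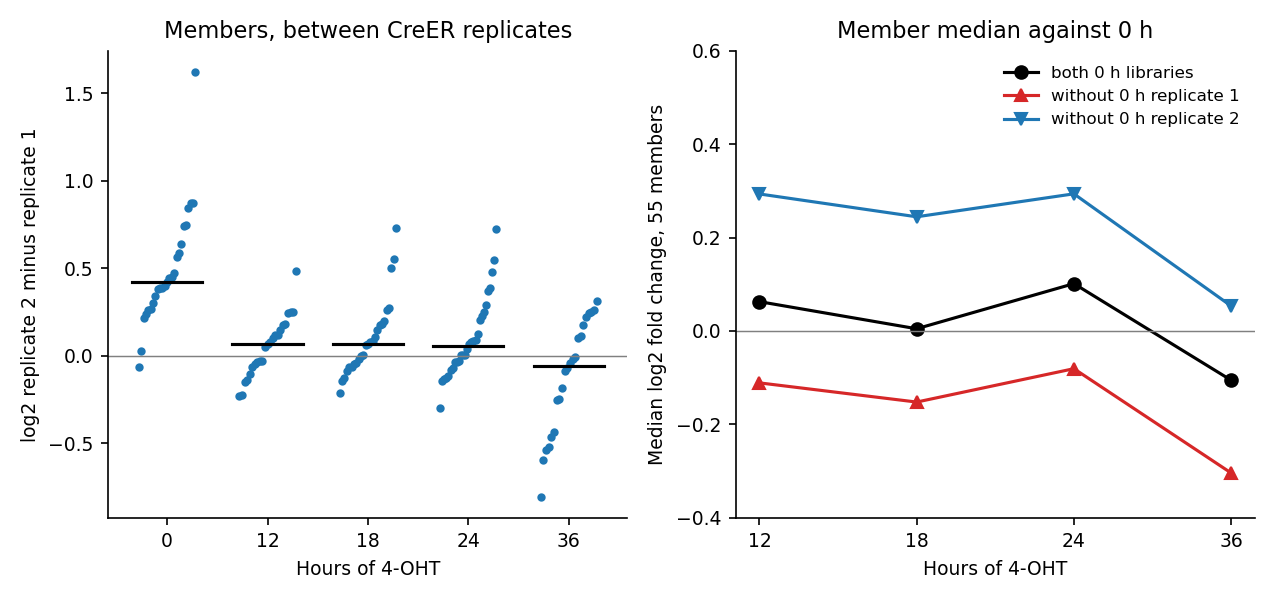
Left, log2 difference between replicate 2 and replicate 1 for each member with a mean of at least 50 counts at each CreER time, with medians as bars. Right, median edgeR log2 fold change of the 55 members against 0 h with both 0 h libraries or without one of them. The 0 h median on the left is 0.42 and those at later times are near 0, and on the right the lines without replicate 1 lie below 0 and those without replicate 2 above 0 at each time.

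Of the U1 genes, 1 passed the test after 12 h of 4-OHT. Rnu1b2 held 2.40 and 3.80 CPM before treatment and 5.47 and 6.19 CPM after 12 h, a rise of 0.88 log2 (SE 0.16, edgeR adjusted p 0.0080). Later pairs of libraries held 3.92 and 4.43 CPM (18 h), 4.08 and 3.69 CPM (24 h) and 4.40 and 3.67 CPM (36 h), the last with 0.38 log2 and an adjusted p of 0.11. The 12 h call was lost without 0 h replicate 1 (0.61, adjusted p 0.076), 12 h replicate 1 (0.97, adjusted p 0.098) or 12 h replicate 2 (0.80, adjusted p 0.16). Rnu1b1, Rnu1b6 and Rnu1a1 were at 0.78, 0.53 and 0.42 at 12 h, with adjusted p of 0.46, 0.14 and 0.31. Their replicates at 12 h were all above those at 0 h, but no call was reached. Rnu1b6 was the U1 gene called at 36 h, with 3.29 and 4.52 CPM at 0 h and 5.92 and 5.56 at 36 h (0.56, SE 0.16, adjusted p 0.0057). Without 0 h replicate 1 it was at 0.36 (adjusted p 0.10), and without 36 h replicate 1 at 0.51 (adjusted p 0.053). Rnu1b1 and Rnu1a1 were at 0.47 and 0.19 there and were not called, with ranges of 0.12 to 1.00 and 0.0048 to 0.43 over fits that left out 1 library. The O4AID values at 1.5 h and these CreER values are of different lines and times and were not set against each other in a test.

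Rnu2-10 also rose at 36 h, from 4.17 and 6.22 CPM to 7.48 and 6.28 (0.41, SE 0.15, adjusted p 0.036), with its lower treated replicate barely above the higher untreated one. Without 0 h replicate 1 it was at 0.17 (adjusted p 0.42), and without 36 h replicate 1 at 0.27 (adjusted p 0.32). Rnu5g and Rnu12 were at -0.04 and -0.29 and were not called. Of the H/ACA members, Snora62 held 1.12 and 1.83 CPM at 0 h and 0.96 and 0.68 at 36 h, and fell by 0.84 (SE 0.29, adjusted p 0.023). The call was lost without 0 h replicate 2 (-0.43, adjusted p 0.41) or 36 h replicate 2 (-0.64, adjusted p 0.17). Its host Rpsa, a ribosomal protein gene, was at 0.02 (adjusted p 0.80). Snora33 held 3.81 and 4.52 CPM at 0 h and 3.04 and 2.95 at 36 h, and fell by 0.47 (SE 0.16, adjusted p 0.019), with Rps12 falling by 0.26 (adjusted p 0.047). Leaving out 0 h replicate 2 gave Snora33 -0.34 (adjusted p 0.20), and leaving out either 36 h replicate gave -0.49 and -0.45 (adjusted p 0.073 and 0.082). No Snord member was called at any time. The nearest was Snord43, at -0.33 at 36 h (SE 0.13, adjusted p 0.052, and -0.48 to -0.14 with single libraries left out), in Rpl3, which fell by 0.19 (adjusted p 0.027). Of the 5 calls at 36 h, 3 were higher and 2 lower, and with scaling by total counts 2 were higher and 6 lower. DESeq2 kept 2 of the 5, Rnu1b6 and Scarna6.

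None of the 5 most abundant members per length over both lines, nor Snora17, was called in CreER at any time. Scarna2 held 75.9 and 114 CPM at 0 h and between 82.6 and 97.1 CPM in the other 8 libraries, so its untreated replicates enclosed all treated ones, and it stood at -0.07 at 36 h. Snord17 varied as widely after treatment, with 34.2 and 19.5 CPM at 36 h after 16.9 and 22.1 at 0 h (0.49, adjusted p 0.38, and 0.0053 to 0.81 with single libraries left out). Snord104 was steadier, between 5.73 and 7.58 CPM in all 10 libraries. Of the H/ACA members, Snora57 was at -0.61 at 36 h (adjusted p 0.11), or -0.95 to -0.07 with single libraries left out. Snora17 was at -0.21, or -0.33 to -0.07, and Snora78 and Snora28 were at -0.09 and -0.05. Snord49a had both replicates clear of the untreated pair (3.37 and 4.18 CPM) at 24 h, with 4.83 and 4.84 CPM (0.35, adjusted p 0.079), and Snord19 did so at 18 and 24 h (0.18 and 0.41, adjusted p 0.59 and 0.074).

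Host genes were tested in the same fit. Of the 35 hosts, 15 were called at 36 h in CreER, 1 higher and 14 lower, against 36.6% of all genes called in either direction. Across the 41 pairs of member and host, Pearson's r of the log2 fold changes was 0.21 and Spearman's rho 0.20, and 24 pairs had the same sign. In O4AID at 24 h, r was 0.83 and rho 0.87 over 11 pairs, and 0.79 and 0.83 over 10 without Scarna6, while at 1.5 h they were -0.05 and 0.06 over 10. These points share libraries, a common 0 h reference and in some cases a host, and the pairs with enough reads are few, so the values are descriptions. Rnu1a1 and Tex14, paired by position only, are among them. Gnl3, a nucleolar GTPase, fell by 0.34 in CreER at 36 h and was at -0.72 in O4AID at 24 h, where its snoRNA Snord19 was at -0.64. 2410006H16Rik, the host of Snord49a, rose by 0.17 in CreER and was at -0.49 in O4AID at 24 h.

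**Figure D5:**
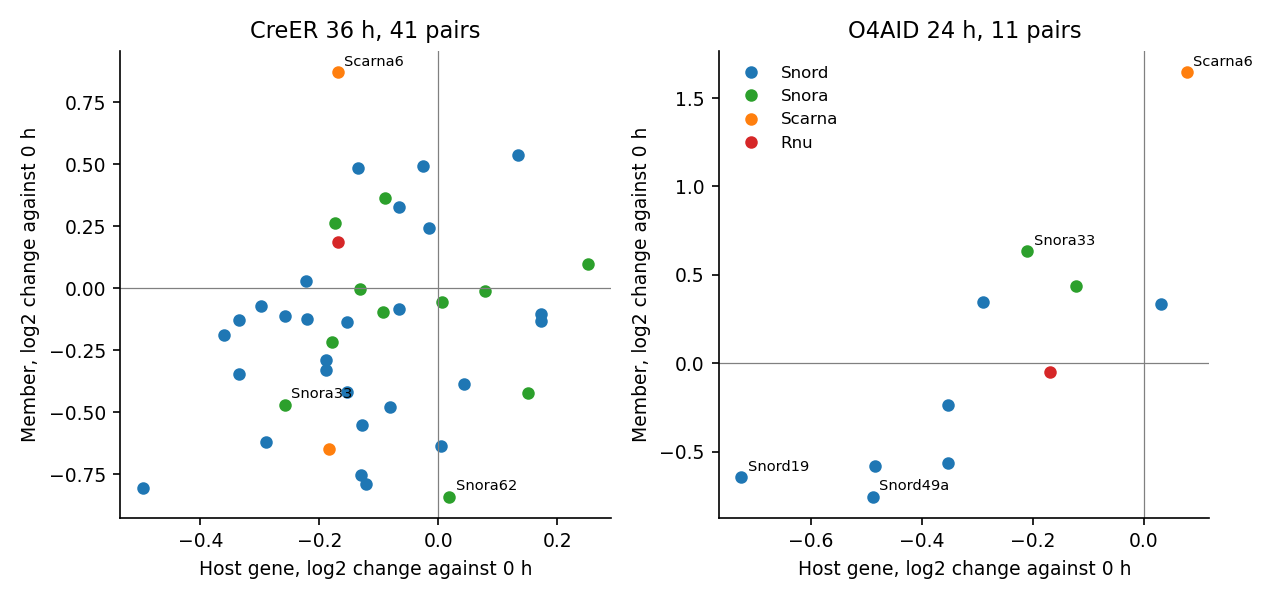
Log2 change of each hosted member (y axis) against that of its host gene (x axis), in CreER at 36 h (left, 41 pairs, edgeR, 2 libraries per time) and in O4AID at 24 h (right, 11 pairs with at least 50 counts on average, 1 library per time). Scarna6 stands highest in both panels, at 0.87 and 1.65, with its host at -0.17 and 0.08.

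Many genes for the proteins of these particles fell in CreER by 36 h. Of 25 genes for snoRNP core and assembly proteins, 0, 3, 12 and 16 fell after 12, 18, 24 and 36 h, and 1 rose at the last time (Wrap53, 0.30), against 0.395%, 8.52%, 21.6% and 36.6% of all genes called in either direction. Their median at 36 h was -0.19, against 0.01 over all genes. The largest falls were Fbl, the methyltransferase of box C/D particles (0.64), Gar1 of H/ACA particles (0.59), the H/ACA assembly factor Naf1 (0.47) and Nolc1 (0.47). Of 29 snRNP protein and assembly genes, 0, 2, 14 and 20 fell at the 4 times and none rose, again with a median of -0.19 at 36 h. Snrpd3 and Snrpd1 of the Sm ring fell by 0.64 and 0.45, Gemin7 of the SMN complex by 0.53, and the U1 protein gene Snrnp70 by 0.37. In O4AID at 24 h, the medians of these 2 lists were -0.47 and -0.38, against -0.03 over all genes. Fbl was at -0.47, Nolc1 at -0.70 and Snrnp70 at -0.44 there, and at 1.5 h both list medians were 0.00. Of the 25 snoRNP genes and the 28 snRNP genes with enough reads, 0 were past 2-fold at the 4 O4AID times. The shares of all genes past 2-fold were 0.319%, 2.09%, 4.04% and 11.7% at 1.5, 6, 10 and 24 h.

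Of 28 genes for snRNA transcription and 3′ processing, 10 fell and 2 rose at 36 h in CreER, with a median of -0.11, a share near the 36.6% of all genes called. Zc3h8, Snapc3, Pou2f1 and Snapc1, which act at snRNA promoters, fell by 0.49, 0.44, 0.41 and 0.23, and the Integrator genes Ints3 and Ints1 rose by 0.21 and 0.14. In O4AID the list's median was 0.03 at 1.5 h and -0.08 at 24 h. At these 2 times 0 of its genes were past 2-fold, against 0.319% and 11.7% of all genes. Of 24 listed snoRNA host genes tested, 1 rose and 5 fell at 36 h, led by Ncl, the nucleolin gene (fell by 0.94), Snhg14 (0.56) and Snhg5 (0.31), while Rnf149 rose by 0.31, a share called below that of all genes. Their O4AID median was -0.02 at 1.5 h and -0.36 at 24 h, when 1 of 22 was past 2-fold and lower, against 11.7% of all genes. None of 9 other small structured RNAs was called in CreER at any time, with medians of 0.31, 0.14, 0.13 and 0.13. Of the 3 ribosomal RNA genes tested, mt-Rnr1 and mt-Rnr2 rose by 0.59 and 0.96 at 36 h and CT010467.1 fell by 5.19. CT010467.1 also differed between the untreated replicates, at 1417 and 3784 CPM. The libraries were depleted of ribosomal RNA, and the part of that depletion in these values was not tested. In CreER, 808 further genes of up to 400 bases were tested, of which 81 rose and 66 fell at 36 h, also a smaller share than over all genes, with a median of -0.03. The part of read depth in these smaller shares was not tested.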

How the data were processed

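RNA was column-purified, depleted of ribosomal RNA and made into directional paired-end libraries. Per the labels and the study's methods, the authors trimmed reads (Trim Galore 0.1.4), aligned them to GRCm38 (TopHat2 2.1.0) and counted them per gene (featureCounts 1.5.1). In the deposited files, 1 per library, the values are raw counts of reads per gene. The strand and multimapping settings are not given in the sources used here, and column purification and size selection recover short RNAs incompletely, to an extent not measured per library. A deposited TMM-scaled table was not used.

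Symbols were matched for 48349 of 48709 genes. The 92 spike-in entries, with 0 reads, were dropped. CreER counts were tested with edgeR 4.0.16 in R 4.3.3 (quasi-likelihood, robust, TMM, filterByExpr, all 10 libraries, each time against 0 h), with Benjamini-Hochberg adjustment over all genes and DESeq2 1.42.0 as an alternative. Replicates differed beyond sampling noise (chi-square per degree of freedom 3.02 to 7.00). O4AID changes are log2 ratios of TMM-scaled CPM + 0.1, described for genes with a mean of at least 50 counts over both libraries and counted past 2-fold, with each library's Wilson 95% interval for the share of reads carried over to the ratio. Intervals cover counting error only, since each O4AID time is 1 library. Reads carry no molecular identifiers, so 1 molecule may be counted more than once and the intervals may be too narrow. Python 3.11.15, pandas 2.3.3 and matplotlib 3.10.9 were used, and sequences came from GENCODE M21 transcripts.

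Named members were every Rnu gene, the 5 Snord, 5 Snora and 3 Scarna genes of highest mean CPM per kb, up to 4 rises and 4 falls among calls at each CreER time whose replicates lay outside both 0 h libraries, and the 4 highest and 4 lowest in O4AID at 1.5 and 24 h, with hosts named beside them. From the lists of snoRNP, snRNP, snRNA transcription and host genes, up to 4 called genes of largest change at 36 h were named, and other genes named were chosen after their values were seen. Members and lists were chosen with earlier results of these data known. One member's sequence is not reported here.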

Additional observations from a re-analysis of the deposited data

Results flagged for a closer look

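For 4 named members, both CreER replicates at 24 h lay on one side of both 0 h libraries while the O4AID change at 24 h, with its counting interval, lay on the other. Rnu5g was at -0.78 in O4AID, on 25 and 13 reads, and at 0.28 in CreER. Snord19 was at -0.64 in O4AID and at 0.41 in CreER. Snord49a was at -0.75 in O4AID and at 0.35 in CreER. Snora33 went the other way, at 0.64 in O4AID and -0.18 in CreER. None of the 4 was called in CreER at 24 h, and the difference between the lines was not tested, since O4AID has 1 library per time. No group held enough libraries for a search for outlying samples.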

How the results depend on the processing

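The same-numbered CreER replicates did not deviate together (correlations of their deviations from group means between -0.02 and 0.05). Taken over many genes at once, these correlations cannot show whether the numbers denote paired cultures. With the replicate number as a block, 1, 1, 0 and 5 members were called at 12, 18, 24 and 36 h, in the order of times used below. Without the filter on low counts, 4, 3, 1 and 8 members were called, and with only the 4 libraries of each comparison 1, 1, 1 and 3. Total-count scaling gave 8 calls and a median of -0.19 at 36 h and a median of 0.024 at 12 h, a minimum mean of 50 counts a median of 0.0099 at 12 h, and DESeq2 2 calls at 36 h. Leaving out 1 library at a time, with a lone library assumed to vary like the other groups, gave 0 to 3, 0 to 3, 0 to 6 and 1 to 11 calls, with medians of -0.11 to 0.29, -0.15 to 0.24, -0.081 to 0.29 and -0.30 to 0.054. At 36 h, Snord104 turned to -0.065 with total-count scaling. Over the fits that left out 1 library, the named members that changed sign ranged at 36 h from -0.15 to 0.24 (Snord104), -0.27 to 0.037 (Snord49a), -0.39 to 0.059 (Snord19), -0.26 to 0.13 (Snora78), -0.11 to 0.0031 (Snora28), -0.73 to 0.098 (Rnu12), -0.90 to 0.57 (Rnu5g) and, for Scarna2, from -0.32 (without 0 h replicate 1) to 0.26 (without 0 h replicate 2). In the same fits, Rnu1b2 at 12 h ranged from 0.61 to 1.27, and at 36 h Rnu1b6 from 0.36 to 0.81, Rnu2-10 from 0.17 to 0.74, Scarna6 from 0.52 to 1.12, Snora33 from -0.58 to -0.34 and Snora62 from -1.13 to -0.43.

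In O4AID, a pseudocount of 1 CPM left 2 members past 2-fold at 1.5 h (median -0.18) and 0 at 10 h. A minimum mean of 10 counts gave 2, 3 and 3 at 6, 10 and 24 h, with a median of -0.13 at 24 h. A minimum mean of 200 counts gave 0 at 10 h (median -0.39) and 0 at 24 h, and a median of -1.03 at 1.5 h. Total-count scaling gave a median of 0.13 at 24 h. With the 6 h library as the reference, 2 were past 2-fold at 1.5 h (median -0.14). With the 1.5 h library as the reference, 2, 2 and 5 were past 2-fold at 6, 10 and 24 h, with medians of 0.14, 0.14 and 0.39. Against the mean of the other 4 libraries 3 were past 2-fold at 1.5 h, and with the U1 genes as 1 value 2, both settings chosen after the data were seen. Fewer genes or libraries enter some of these settings, and otherwise the cause was not tested. Most members rest on few reads, U1 copies share reads, and O4AID has 1 library per time, so its values carry counting error only and no estimate of replicate spread.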
